A study of Mus musculus with 18 samples.

Results

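The small RNA that stayed on the MS2 control bait was set against the small RNA of the extract it came from, in undifferentiated C2C12 cells. C2C12 is an established mouse myoblast line that fuses into myotubes when serum is lowered. The members are 6 of the 18 libraries of the series, taken by their group: 3 MS2 control eluates and 3 inputs, each from undifferentiated cells grown in 10% FCS. The other 12 libraries are eluates of a bait with the MRTF-A 3'UTR in both states, and inputs and MS2 control eluates of cells differentiated for 7 days in 2% horse serum. The state follows the titles, because the labels carry the horse serum text for undifferentiated samples too. The labels name no transgene. They also do not state separate cultures for the 3 libraries of each group, and p-values here reflect the spread among those libraries alone, which could be technical. The letters A, B and C name the libraries of each group and do not pair an eluate with an input. All 2042 names of the table were read, 1908 of them mouse and 134 human.

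A miRNA is cut from a hairpin precursor, and either arm (5p or 3p) can be loaded into an Argonaute protein, which the bases after the first, called the seed, guide to complementary messages. In miRNA trapping by RNA affinity purification (miTRAP), a bait RNA tagged with MS2 hairpins is held on a resin by the MS2 coat protein, extract is passed over it, and the small RNA that stays is eluted. The MS2 control has the tag without the 3'UTR of interest, so its eluate holds what the resin, the coat protein and the tag retain. The comparison with input asks which miRNA names are over- and under-represented in that background.

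The mature sequences of the names on which the results turn are given here 5' to 3', with the seed (bases 2 to 8) in capitals. They come from RefSeq (GRCm38.p6), where 197 of the 229 tested names (86.0%) had an entry. The first set holds leading names of the control eluate. miR-615-3p lies at chr15:103014969-103014990 on the plus strand, in an intron of Hoxc5. miR-423-3p lies at chr11:77078086-77078108 on the minus strand, in an intron of Nsrp1. miR-1195 lies at chr17:70860558-70860580 on the minus strand, opposite an intron of the pseudogene Gm9320. miR-6244 lies at chr9:52115653-52115673 on the plus strand, opposite coding sequence of Zc3h12c.
miR-615-3p: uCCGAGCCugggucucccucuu
miR-423-3p: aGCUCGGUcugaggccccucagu
miR-1195: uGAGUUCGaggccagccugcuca
miR-6244: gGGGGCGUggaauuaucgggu

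The second set holds abundant input names that were far lower in the control eluate than in the input. miR-21a-5p lies at chr11:86584120-86584141 on the minus strand, in a UTR of Vmp1. miR-25-3p lies at chr5:138165332-138165353 on the minus strand, in an exon of Mcm7 as annotated. miR-221-3p lies between genes at chrX:19146307-19146329 on the minus strand.
miR-21a-5p: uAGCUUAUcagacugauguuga
miR-25-3p: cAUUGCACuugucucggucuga
miR-221-3p: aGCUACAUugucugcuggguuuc

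The eluates were shallow. The recovered reads numbered 20525, 39695 and 24371 in MS2 control A, B and C, against 294112, 351760 and 860828 in the inputs. A single read was therefore worth 32.8, 11.9 and 21.3 CPM in the eluates and 1.66 to 3.05 CPM in the inputs, where CPM is the authors' normalised counts scaled to a common library size. The whole eluate but only 8% of the input RNA went into a library, so levels are shares of a library and not amounts retained. Of the 2042 names, 544 had a read in an eluate and 1137 in an input, and the 87 seen only in eluates had at most 5 reads each. Replicates differed by more than sampling of reads in every pair (chi-square per degree of freedom 27.2 to 182 in the eluates and 78.2 to 236 in the inputs). MS2 control A stood apart: miR-6244 took 55.2% of its reads, against 10.5% and 20.0% in B and C, and 0.765% of its reads carried human names, against 0.111% and 0.115%. Values that rest on it are given with and without it.

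The control eluate was a different mixture from the input. The reads of 1 name, miR-615-3p, made up 22.9%, 30.5% and 31.9% of eluates A, B and C and 0.0476%, 0.0256% and 0.0307% of the inputs. miR-21a-5p, the most abundant input miRNA, made up 38.5%, 41.1% and 53.3% of the inputs and 1.99%, 1.21% and 2.06% of the eluates. No eluate library came near an input library in either share, and these shares do not depend on the scaling between libraries.

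**Figure D1:**
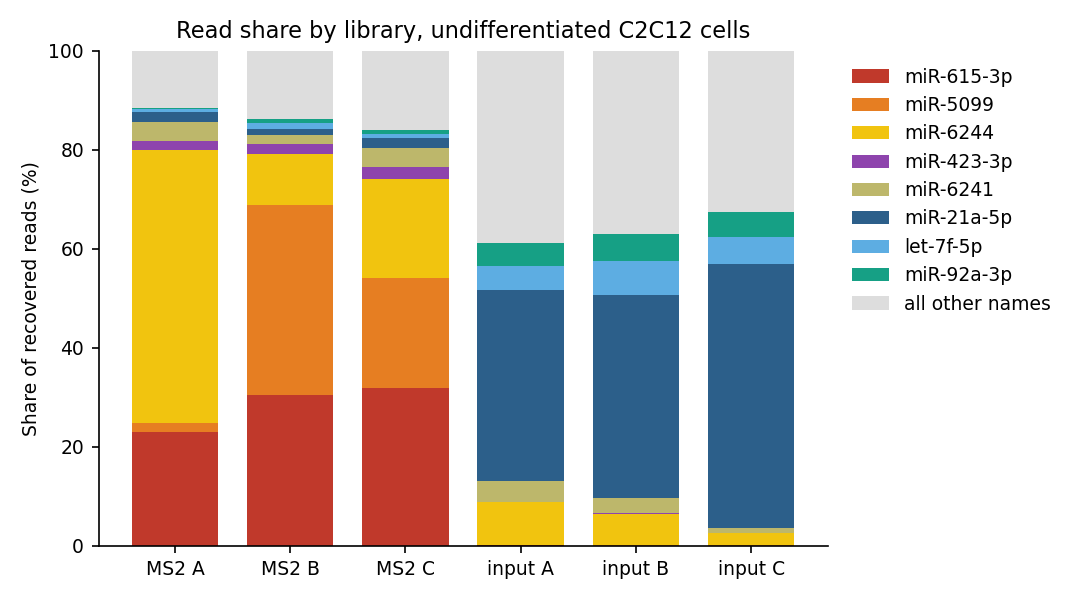
Share of recovered reads (%) taken by 8 abundant names and by all other names in each of the 6 libraries. miR-615-3p, miR-5099 and miR-6244 fill most of each eluate bar, with miR-5099 small in MS2 control A, while miR-21a-5p is the largest block of every input.

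Of the 2042 names, 229 passed the filter on low values, and each was tested with limma on log2(CPM + 10). At an adjusted p under 0.05, 187 were called (81.7%): 20 were higher in the MS2 control (8.73% of those tested) and 167 lower (72.9%), and the median log2 fold change was -3.04. The groups did not overlap for 21 names that lay higher (9.17%) and 176 that lay lower (76.9%). The 20 higher names took 28.4% to 73.0% of the eluate reads and 0.389% to 0.668% of the input reads, while the 167 lower names took 7.95% to 10.8% and 83.0% to 93.0%. The filter was met in all libraries of both groups by 80 names, of which 6 were higher and 52 lower: the higher ones were miR-615-3p, miR-5099, miR-423-3p, miR-1195, let-7d-5p and miR-3473b. The other 14 higher names met the filter only through the eluates, where they are high, and 115 of the 167 lower names only through the inputs. The filter favoured a difference in these names, so their calls and the shares that hold them are a description of what passed.

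The scaling set how many names counted as lower. Counts were 27 higher and 140 lower with library totals, 36 and 102 with relative log expression (RLE) factors, 29 and 136 with TMM factors of these 6 libraries, 22 and 171 with edgeR's quasi-likelihood test and 50 and 66 with DESeq2. The median log2 fold change moved from -3.04 to -2.41, -1.64, -2.33, -3.30 and -1.04 in that order. Under all 6 (these and the deposited scaling), 19 names were higher (8.3%) and 63 lower (27.5%). All of these alternatives but edgeR raise the median, and an upward shift shared by the names keeps rises and loses falls. Fold changes below are those of the deposited scaling, and a value of about -3 is that of the typical tested name.

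**Figure D2:**
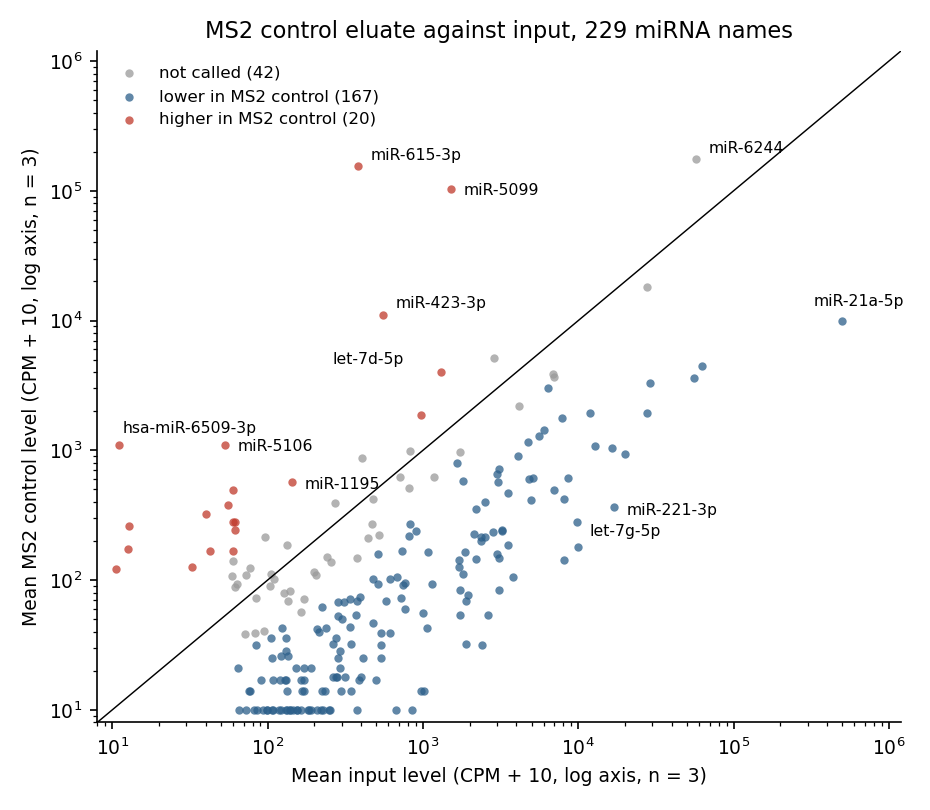
Mean level of the 229 tested names in the 3 MS2 control eluates against the 3 inputs, both as CPM + 10 on log axes, coloured by call; the line marks equal levels. Most points lie under the line, and miR-615-3p and miR-5099 lie farthest above it among the abundant names of the eluate.

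miR-615-3p was measured at 154347, 143625 and 165833 CPM in the eluates and at 426, 250 and 437 CPM in the inputs. It was even across eluates (154602 ± 11106 CPM, SD, n = 3, against 371 ± 105), and the groups lay far apart. The log2 fold change was 8.70 ± 0.35 (SE; limma, adjusted p = 4.49e-07), and it lay between 8.45 and 10.9 over all 20 settings tried. miR-423-3p, from a hairpin in an Nsrp1 intron, was at 11880, 9508 and 11975 CPM in the eluates and 308, 817 and 514 CPM in the inputs. Its log2 fold change was 4.42 ± 0.40 (limma, adjusted p = 1.26e-05), again with no overlap.

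let-7d-5p, a member of a family known to repress growth genes, was at 4004, 4665 and 3245 CPM in the eluates and 755, 1834 and 1314 CPM in the inputs. The lowest eluate lay above the highest input, and the log2 fold change was 1.68 ± 0.40 (limma, adjusted p = 0.00356). miR-1195 was at 427, 499 and 747 CPM in the eluates and 85.3, 136 and 179 CPM in the inputs, a log2 fold change of 2.00 ± 0.51 (limma, adjusted p = 0.00526). miR-3473b passed with an adjusted p of 0.0496 (limma) at a log2 fold change of 0.95 ± 0.40, but its groups overlapped. Its eluates were at 1313, 1816 and 2412 CPM and its inputs at 673, 1339 and 866 CPM. Its call was lost without input A, input C, MS2 control B or MS2 control C, with adjusted p of 0.124, 0.104, 0.128 and 0.186.

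miR-5099 was the most uneven of the abundant retained names. It was at 12734, 180255 and 115735 CPM in eluates A, B and C and at 935, 1853 and 1710 CPM in the inputs. All eluates lay above all inputs, yet eluate A held far less than B or C. The log2 fold change was 5.47 ± 0.88 (limma, adjusted p = 0.000388), and it was 6.64 without MS2 control A and 4.73 without MS2 control B. miR-5106 was even in the eluates (952, 961 and 1345 CPM) and uneven in the inputs (9.14, 2.78 and 118 CPM, from 3, 1 and 71 reads). It met the filter only through the eluates. Its log2 fold change was 5.10 ± 0.86, and it was 4.45 without input B and 6.11 without input C.

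The human name hsa-miR-6509-3p had 81, 28 and 12 reads in the eluates and 1 read in all the inputs together. On pooled reads scaled to CPM, the eluate level was 968 times the input level (95% exact interval 170 to 38528, counting error only). The fitted log2 fold change was 5.84, and it was 4.79 without MS2 control A and 6.45 without MS2 control C. miR-23b-5p had 4, 8 and 5 eluate reads and 1 input read, a ratio of 136 (95% exact interval 21.3 to 5681). miR-5119 had 8, 11 and 17 eluate reads and 0, 0 and 5 input reads, and miR-369-3p had 4, 5 and 14 against 0, 1 and 3. These 4 names rest on few input reads, so the sizes of their folds are poorly bounded. miR-23b-5p failed the filter on low values when any library was left out, and miR-369-3p when MS2 control C was.

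The remaining higher names were scarce on both sides. miR-6396, miR-709, miR-6355, miR-129b-3p, miR-6898-3p, miR-690 and miR-188-5p had means of 115 to 487 CPM in the eluates and 22.7 to 51.6 CPM in the inputs, with log2 fold changes of 1.96 to 3.07 and no overlap. miR-6898-3p and miR-690 were no longer called without input B, with adjusted p of 0.051 and 0.054, and miR-188-5p failed the filter on low values without any of the inputs. miR-99a-5p, of the miR-99 and miR-100 family, was at 164, 178 and 128 CPM against 60.9, 33.3 and 54.7 CPM, a log2 fold change of 1.50. Its call was lost without input A, B or C, at adjusted p of 0.071, 0.0965 and 0.0785. miR-7667-3p (log2 fold change 1.95) overlapped between groups: eluate A was at 65.6 CPM, below input B at 69.5 CPM. It was 2.73 without MS2 control A and lost its call without each of the other 5 libraries in turn, at adjusted p of 0.087 to 0.147.

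The calls of some abundant eluate names depended on the scaling. miR-6244 was at 371968, 49284 and 104273 CPM in the eluates, but it was also the second most abundant name of input A, and the inputs were at 78042, 61056 and 33414 CPM. Eluate B lay below input A, and the log2 fold change of 1.20 ± 0.78 did not pass with the deposited scaling (limma, adjusted p = 0.178). It was called higher under 5 of the 6 scalings and tests, where its values ran from 1.61 (edgeR) to 3.77 (DESeq2). With the deposited scaling it was 0.40 without MS2 control A, and with MS2 control B left out it was 1.86 and passed (adjusted p = 0.032). miR-6240 was at 5546, 3692 and 6062 CPM against 2457, 2584 and 3590 CPM, a log2 fold change of 0.81 that missed the threshold (limma, adjusted p = 0.0529) though the groups did not overlap. It passed without input C and without MS2 control B, at adjusted p of 0.041 and 0.039. It was called higher under 4 of the 6 scalings and tests, among them library totals at 1.78 (limma, adjusted p = 0.00118), and not with edgeR at 0.82. miR-6241 had a log2 fold change of -0.66 (limma, adjusted p = 0.27), which turned to 0.31 with library totals, 0.43 with TMM factors, 1.29 with RLE factors and 1.49 with DESeq2, where it was called.

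Among the lower names, miR-21a-5p was at 344878, 401474 and 759582 CPM in the inputs and 13390, 5721 and 10737 CPM in the eluates. Its log2 fold change was -5.65 ± 0.56 (limma, adjusted p = 2.06e-05), or 2.61 below the median of all tested names. miR-25-3p, of a growth-promoting cluster in Mcm7, was at 6081, 8519 and 9658 CPM in the inputs and 230, 83.1 and 85.4 CPM in the eluates (log2 fold change -5.95 ± 0.45, limma, adjusted p = 5.74e-06). miR-221-3p, known to repress the cell-cycle inhibitor p27, was at 11998, 16873 and 22203 CPM in the inputs and 755, 119 and 192 CPM in the eluates (log2 fold change -5.93 ± 0.62, limma, adjusted p = 2.79e-05), and at -6.68 without MS2 control A. miR-186-5p was at 11425, 5296 and 13267 CPM against a mean of 168 ± 64.2 CPM (log2 fold change -5.78, limma, adjusted p = 7.78e-06). The groups of these 4 names lay more than 10 times apart even at their nearest libraries, and each was lower under all 6 scalings and tests.

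Depth set a limit on the rest of the lower names. No read of 30 lower names was seen in any eluate, 44 had 1 to 3 eluate reads and 93 had more. With no read, 3 reads per library stand as the floor, a mean of 66.0 CPM over the eluates. miR-31-3p had 280, 149 and 761 input reads (842 ± 423 CPM) and none in the eluates, and was at least 12.8-fold lower. miR-129-5p, better known from brain, had 173, 197 and 541 input reads and none in the eluates, and was at least 9.95-fold lower. miR-101b-3p was likewise at least 5.56-fold lower. The bounds of the 30 names ran from 0.833 to 12.8, so for some the depth cannot show a fall. miR-7680-5p, with the lowest fitted log2 fold change (-6.88), had 3 eluate reads, all in MS2 control C; pooled, the input level was 130 times the eluate level (95% exact interval 44.5 to 632). miR-28a-3p was at -5.90, and at -4.59 without MS2 control C, in which it had no read, and at -6.50 and -6.61 without A and B.

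The let-7 guide strands share a seed and differ in a few bases outside it, and they are printed here because the control eluate held them so unequally. With positions counted from 1 at the 5' end and let-7a-5p as the reference, let-7d-5p has U1A and U16C, let-7b-5p A17G and A19G, let-7c-5p A19G, let-7e-5p U9G, let-7f-5p G12A and let-7g-5p G12U and U18C. let-7d-5p lies at chr13:48536078-48536099 and let-7a-5p, in 1 of its copies, at chr13:48538239-48538260, both on the minus strand in an exon of the long noncoding RNA 6720427I07Rik. let-7b-5p lies at chr15:85707325-85707346 on the plus strand, in an exon of the noncoding Lncppara. let-7g-5p lies at chr9:106178846-106178867 on the plus strand, in an intron of Wdr82.
let-7d-5p: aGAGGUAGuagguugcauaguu
let-7b-5p: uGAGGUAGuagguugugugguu
let-7c-5p: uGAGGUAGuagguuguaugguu
let-7e-5p: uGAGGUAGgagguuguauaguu
let-7a-5p: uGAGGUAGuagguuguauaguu
let-7f-5p: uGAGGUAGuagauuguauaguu
let-7g-5p: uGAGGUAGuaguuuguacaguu

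Counted as reads of the 9 let-7 and miR-98 guide strands, let-7d-5p was 32.4%, 30.1% and 25.4% of the family in eluates A, B and C and 1.14%, 1.68% and 1.11% in the inputs. For each let-7a-5p read there were 8.71, 11.9 and 6.08 let-7d-5p reads in the eluates and 0.371, 0.370 and 0.371 in the inputs. Both measures are free of the scaling between libraries, and in neither did the groups come near each other. let-7b-5p was 1.62%, 1.95% and 1.63% of family reads in the inputs and 7.43%, 6.67% and 7.18% in the eluates. let-7f-5p, the largest member, was 65.0%, 60.8% and 66.5% of the inputs and 31.3%, 33.1% and 34.9% of the eluates. let-7g-5p was 9.17%, 10.9% and 9.47% of the inputs and 4.24%, 1.30% and 0.668% of the eluates. With 3 libraries a side, an exact permutation test of such a share cannot go below 0.10, and none was made.

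On the log2 scale the order was let-7d-5p at 1.68, let-7b-5p at -0.78, let-7c-5p at -2.01, let-7e-5p at -2.07, let-7a-5p at -2.82, let-7i-5p at -3.06, let-7f-5p at -3.77, miR-98-5p at -4.05 and let-7g-5p at -5.40. Standard errors were 0.37 to 0.61. They belong to single members and do not measure the steps between members, which were not tested, so the order of neighbours is uncertain. With let-7k, which had no eluate read, 1 of the 10 family members was higher, 8 were lower and let-7b-5p was not called. The family median was -2.94, close to the -3.04 of all tested names. let-7d-5p was higher under all 6 scalings and tests. let-7b-5p was above 0 with library totals and with TMM factors (0.19 and 0.31), was called higher with RLE factors and with DESeq2, and was called lower without input A (log2 fold change -1.08), and let-7c-5p and let-7e-5p turned to 0.16 and 0.18 with DESeq2. let-7g-5p was at -6.04 without MS2 control A and -4.79 without C, and miR-98-5p at -3.38 without A. How reads that match several members were counted is not given in the sources used here, so single members are uncertain to that extent.

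**Figure D3:**
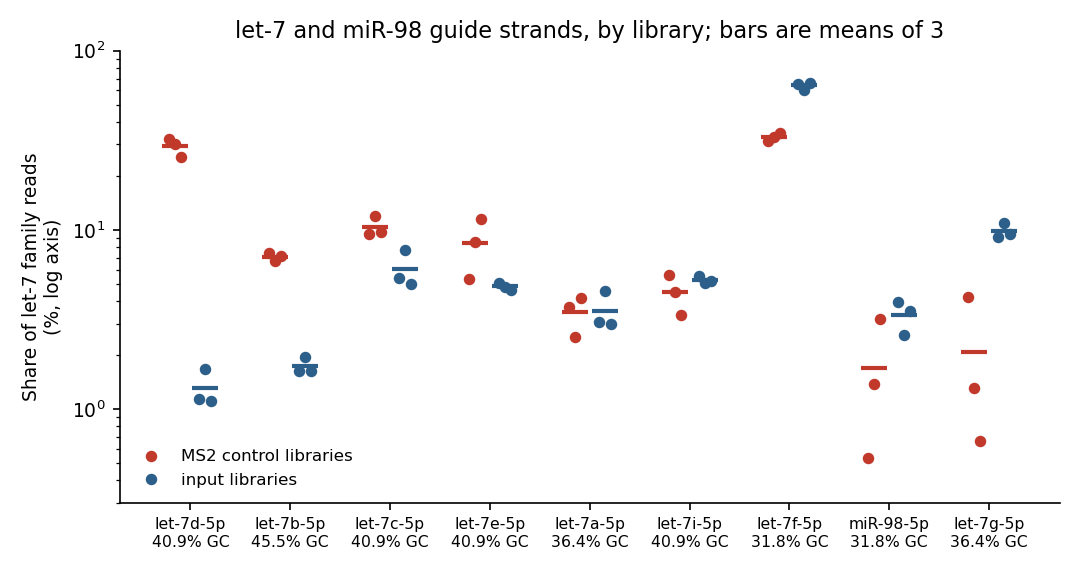
Share of let-7 and miR-98 guide-strand reads (%, log axis) taken by each member, with 1 point a library and bars at the means of 3 libraries; the share of G and C in each mature sequence is written under its name. let-7d-5p is at 25.4% to 32.4% in the eluates and at 1.11% to 1.68% in the inputs, while let-7g-5p lies lower in every eluate than in any input.

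Other names with a shared seed also parted. Among the tested names with a sequence, 22 seeds were shared by 2 or more names, and the median span of log2 fold change within a seed was 1.35. These include the seed of miR-199a-3p and miR-199b-3p, whose mature sequences are identical. The let-7 seed had the widest span (7.08). miR-221-3p and miR-222-3p, from the same cluster, followed at 4.89. For each miR-222-3p read there were 4.67, 3.27 and 4.65 miR-221-3p reads in the inputs and 0.523, 0.0901 and 0.0503 in the eluates, so the order of the 2 names was reversed in every eluate. miR-25-3p and miR-92a-3p share a seed too: miR-92a-3p was at -3.97 and miR-25-3p at -5.95. There were 0.142, 0.161 and 0.136 miR-25-3p reads per miR-92a-3p read in the inputs and 0.101, 0.0191 and 0.0200 in the eluates. The 16 higher names with a sequence had 16 different seeds. Of these, 13 shared theirs with no other tested name, as did most of all tested names with a sequence.

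The arms of a hairpin were often held unequally. In 48 pairs of arm names both arms were tested, and the median difference between arms was 1.58 (log2, without sign). Both arms were lower in 29 pairs and both higher in 0. The pairs are not all separate hairpins: let-7f-5p and miR-125b-5p recur, and names such as miR-129-5p come from more than 1 locus. In 3 hairpins the arms were called in opposite directions. miR-615-5p had 0, 3 and 2 eluate reads and 40, 55 and 54 input reads, a log2 fold change of -2.16 (limma, adjusted p = 0.014) beside the 8.70 of miR-615-3p. let-7d-3p was at -2.48 (limma, adjusted p = 0.013) beside 1.68 for let-7d-5p, and miR-23b-3p at -2.26 (limma, adjusted p = 0.0064) beside miR-23b-5p. These 3 lower arms met the filter only through the inputs, and miR-23b-5p only through the eluates. The falls of these 3 arms are smaller than that of the typical name: each was lower under only 2 of the 6 scalings and tests, and miR-615-5p was at 0.16 with DESeq2. miR-615-5p was at -1.39 without MS2 control A, and let-7d-3p was not called without input B (adjusted p = 0.062), at -1.87 without MS2 control B and at -3.20 without C.
miR-615-5p: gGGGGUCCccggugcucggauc

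Reads of miR-423-3p per read of miR-423-5p numbered 4.21, 5.65 and 3.37 in the inputs and 72.4, 44.5 and 80.1 in the eluates, with miR-423-5p itself at a log2 fold change of 0.52 that did not pass (limma, adjusted p = 0.41). miR-25-5p was at 0.31 (limma, adjusted p = 0.65) beside the -5.95 of miR-25-3p. miR-31-5p was at -1.14 (limma, adjusted p = 0.027) with 140, 192 and 99 eluate reads, while miR-31-3p had none. The call of miR-31-5p was lost without input B, input C, MS2 control B or MS2 control C (adjusted p 0.060 to 0.12), and it lay above 0 with RLE factors and with DESeq2.

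**Figure D4:**
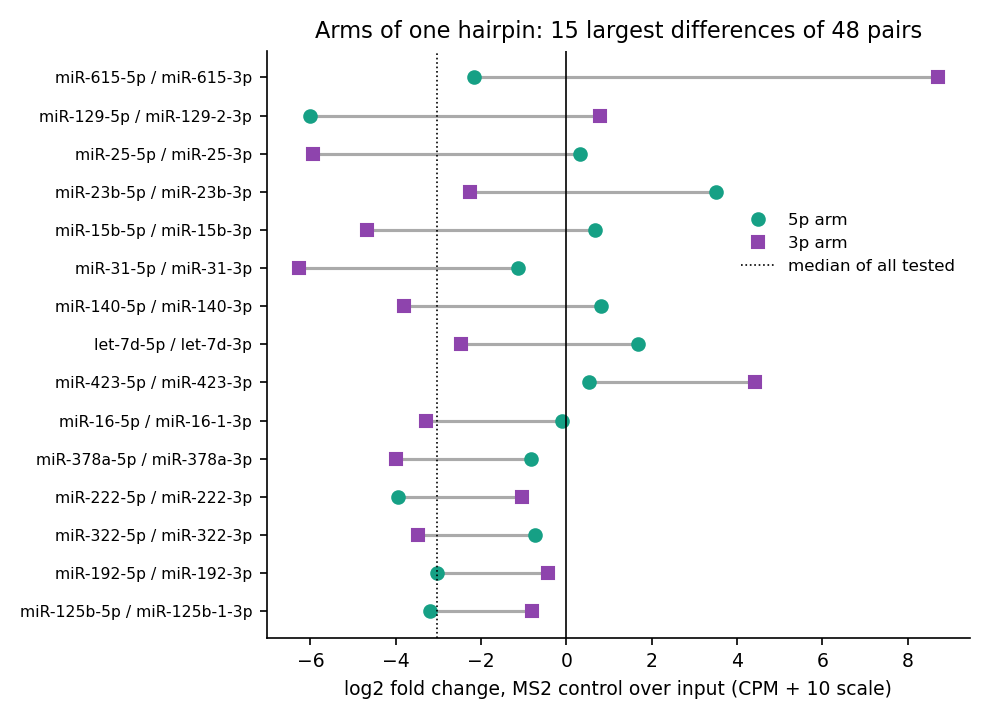
log2 fold change of the MS2 control over input for both arms of the 15 pairs of arm names that differed most, of 48 pairs. The dotted line marks the median of all tested names. The arms of miR-615 are farthest apart, at -2.16 and 8.70. miR-129-5p, miR-31-3p, miR-16-1-3p and miR-222-5p had no eluate read, so their points follow the input level and the 10 added to CPM.

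miR-129-5p and miR-129b-3p come from opposite strands of 1 locus on chromosome 2, at chr2:94241419-94241439 (minus) and chr2:94241420-94241442 (plus), and their mature sequences are complementary over 20 bases. They are printed because their calls were opposite. miR-129b-3p had 12, 17 and 10 eluate reads and 26, 12 and 25 input reads, a log2 fold change of 2.20, whereas miR-129-5p had 911 input reads and no eluate read. The first met the filter only through the eluates and the second only through the inputs, so the filter favoured these opposite calls. miR-129-5p has a further copy on chromosome 6. Whether the authors' counting used strand is not given in the sources used here, so reads of the partners may have been mixed.
miR-129b-3p: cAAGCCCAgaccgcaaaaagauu
miR-129-5p: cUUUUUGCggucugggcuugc

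The miRNA families of muscle and growth were mostly lower, as were most names. All 5 tested myomiRs were lower (median -3.09, against -3.04 for all tested): miR-133b-3p had 1 eluate read and 1194 input reads, miR-206-3p 1 and 152, and miR-133a-3p 5 and 725. miR-486-5p and miR-3107-5p, names of 1 shared mature sequence, were at -2.41 and -2.19. Over the inputs miR-133a-3p ran from 147 to 1218 CPM and miR-133b-3p from 206 to 2052 CPM. Single libraries left out (input A or B, MS2 control A or C) put miR-133a-3p between -4.69 and -3.16, and input A or B left out put miR-133b-3p at -4.95 or -6.58. With RLE factors 2 of the 5 myomiRs were lower and with DESeq2 1.

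Of the 10 tested members of miR-17~92 and its paralogs, growth-promoting clusters, 9 were lower and none higher, with a median of -4.25, which is 1.21 below that of all names. With DESeq2 7 were lower, and the median stayed 1.58 below. Examples are miR-92a-3p, at 42937, 52993 and 71024 CPM in the inputs and 2264, 4344 and 4269 CPM in the eluates, and miR-93-5p at -4.99. All 5 members of the miR-30 family were lower (median -4.27; 4 with DESeq2), led by miR-30a-5p at -4.38. Of 6 names abundant in dividing myoblasts, 5 were lower (median -4.80, against -3.04 for all tested), and with DESeq2 2 were higher and 4 lower. With names without a read at their bound, the median was -2.41 for these names and -2.41 for all tested.

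The miR-15/16 family, which restrains the cell cycle, lay at the other end. None of its 3 tested members was called with the deposited scaling or with edgeR. With library totals, RLE factors or TMM factors 1 was called higher, and with DESeq2 2 were. The median was -0.11, or 2.94 above that of all names. miR-16-5p was at 667, 800 and 989 CPM in the inputs and 230, 1246 and 1451 CPM in the eluates, which overlapped (log2 fold change -0.11 ± 0.66, limma, adjusted p = 0.881), and it was at 0.73 without MS2 control A and 2.46 with DESeq2. miR-15b-5p was at 0.68 and miR-322-5p at -0.74. The family's median lay 2.94 to 3.59 above that of all names under each of the 6 scalings and tests.

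The counts of the other fixed families stand beside the shares over all tested names, 8.73% higher and 72.9% lower. The miR-23, miR-27 and miR-24 clusters had 1 higher and 8 lower of 9 (median -2.77), and miR-181 had 4 lower of 4 (-3.77). miR-26 and miR-29 had 4 lower of 4 (-3.36), and miR-125 4 lower of 5 (-2.59). miR-199 and miR-214 had 3 lower of 5 (-2.07), where miR-199a-3p and miR-199b-3p are names of 1 mature sequence. miR-99, miR-100 and miR-10 had 1 higher and 2 lower of 4 (-1.61), and miR-34 and miR-449 2 lower of 2 (-2.19). The miR-130, miR-301, miR-148 and miR-152 families had 2 lower of 5 (-2.15), and miRNAs made without Drosha or Dicer 2 lower of 3 (-2.58). Fewer were lower with other scalings. With RLE factors and with DESeq2, lower names numbered 4 and 3 for the miR-23 list, 0 and 2 for miR-26 and miR-29, 2 and 2 for miR-181 and 1 and 0 for miR-125, against 102 and 66 of all 229. With DESeq2 1 member each of the miR-125 and miR-34 lists was higher and none lower. The medians of the miR-199, miR-99 and miR-130 lists were at or above 0 with DESeq2, and that of the miR-99 list also with RLE factors.

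By registration number, the eluates were rich in late names. Mouse names numbered 5000 or more took 49.1% to 63.0% of the eluate reads and 5.23% to 15.6% of the input reads, most of them miR-6244 and miR-5099. Of 29 such names tested, 7 were higher and 13 lower (median -1.12), where 8.73% and 72.9% of all tested names were. Of these 7, miR-5099 alone met the filter in all libraries of both groups. miR-5106, miR-5119, miR-6396, miR-6355, miR-6898-3p and miR-7667-3p met it only through the eluates, where they are high. The filter thus favoured their calls, and the counts and median of the late names are a description of what passed. With library totals 10 were higher and 10 lower, and with DESeq2 13 and 4 (median 0.96). Names numbered below 1000 had 10 higher and 142 lower of 179 (median -3.15), and names between these bounds had 2 higher and 11 lower of 19 (median -2.32). With DESeq2 these 2 classes had 29 higher and 61 lower, and 7 higher and 0 lower. Only 184 of the 781 late names in the table had an eluate read.

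Base composition was compared as a description, with no test. The median share of G and C was 55.7% in the 16 higher names with a sequence, 47.8% in 143 lower ones and 50.0% in all 197. Names under 40% G and C had a median log2 fold change of -3.74, those from 40% to 50% -3.21, those from 50% to 60% -2.89 and those of 60% or more -1.99. Across the 197 names Spearman's rho was 0.22, a description over names that share libraries. It was 0.19 with library totals and 0.23 over 215 names with at least 10 reads in every input. Over the 38 names with at least 10 reads in every eluate it was 0.49, but that filter selects on the group where the higher names are high. Over the 9 let-7 and miR-98 guide strands rho was 0.78, again a description. The 2 members with the lowest share of G and C, let-7f-5p and miR-98-5p, were at -3.77 and -4.05. The order was not complete: let-7g-5p at 36.4% was lower still, and let-7d-5p at 40.9% was above let-7b-5p at 45.5%. Between arms of a hairpin the share of G and C gave no order: the richer arm was the higher in 16 of 33 pairs. The first base was U in 12.5% of the higher names and in 42.6% of all tested, and A in 50.0% and 25.4%. Of the 20 higher names, 14 met the filter only through the eluates, so the figures for higher names describe what passed. Among those that met it in both groups, miR-615-3p and miR-1195 begin with U, miR-423-3p and let-7d-5p with A and miR-3473b with G.

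The same contrast in differentiated cells used 6 other libraries. All 20 higher names were tested there in a limma fit of 12 libraries: 18 had a positive log2 fold change and 15 were called higher, against 39 of all 276 names tested (14.1%). miR-615-3p was at 226069, 232495 and 59521 CPM in the differentiated eluates and 164 ± 41.4 CPM in their inputs, a log2 fold change of 9.75 ± 0.47. miR-423-3p was at 5.71 ± 0.39, miR-5106 at 5.64 ± 0.71, let-7d-5p at 1.36 ± 0.36 and miR-1195 at 2.00 ± 0.44. let-7d-5p was 17.3%, 15.5% and 22.9% of family reads in the differentiated eluates and 1.92%, 1.65% and 1.92% in their inputs. The leading retained names other than miR-5099 were thus above input in both states.

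miR-5099 was the exception among the abundant ones. Its differentiated eluates were at 3188, 3742 and 2112 CPM, all below the lowest undifferentiated eluate, and its log2 fold change there was 1.16 ± 0.96. The difference between states, 4.31, missed the threshold (limma, adjusted p = 0.061). For 2 of the 20 names the difference passed: miR-690 had a log2 fold change of 1.98 in undifferentiated and 5.17 in differentiated cells (difference -3.20, limma, adjusted p = 0.00461), and miR-7667-3p had no read in the differentiated eluates (difference 3.22, limma, adjusted p = 0.0366). Over all 276 names the difference was higher in 3 (1.09%) and lower in 28 (10.1%), with a median of -0.68.

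**Figure D5:**
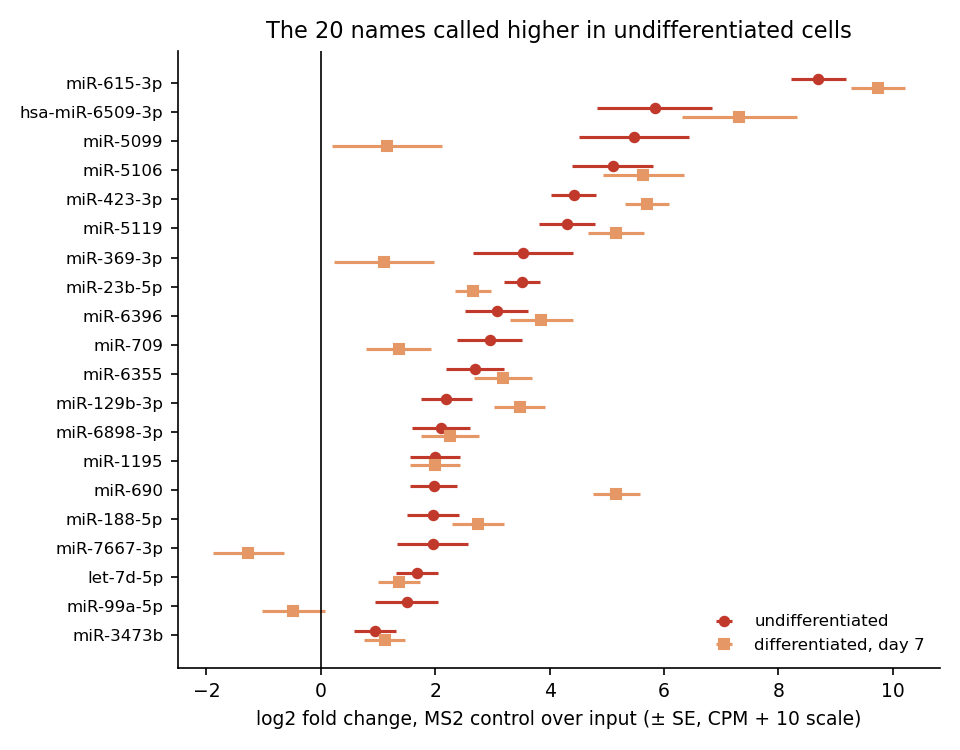
log2 fold change of the MS2 control over input (± SE, limma on 12 libraries) for the 20 names called higher in undifferentiated cells, in undifferentiated cells and at day 7 of differentiation. Most names lie right of 0 in both states; miR-690 is higher at day 7, and miR-7667-3p and miR-99a-5p lie left of 0 there.

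The eluate of the MRTF-A bait from undifferentiated cells gives the levels of these names where another RNA is tethered. These levels are given beside the control with no test. The factor that scales the library size was 0.609, 0.341 and 0.562 in MRTF-A eluates A, B and C. It was 1.48 to 2.12 in the control eluates and 0.701 to 1.12 in the inputs. The same share of reads thus gave a higher CPM on the MRTF-A bait than in the control or the input. The sizes of CPM levels are therefore not comparable between them, while shares of reads do not depend on the factor. miR-615-3p was at 2371 ± 397 CPM there, against 154602 ± 11106 in the MS2 control and 371 ± 105 in the input (SD, n = 3). miR-423-3p was at 531 ± 249 CPM, against 546 ± 256 in the input. miR-5106 was at 747 ± 350 CPM, against 1086 ± 224 in the control, and hsa-miR-6509-3p had no read. let-7d-5p was at 6550 ± 2205 CPM and made up 2.00%, 2.17% and 2.48% of let-7 family reads, above its share in every input and below its share in every control eluate. miR-615-3p made up 0.117%, 0.0905% and 0.143% of the reads there. miR-5099 was at 7865, 50675 and 21690 CPM on the MRTF-A bait, or 0.479%, 1.73% and 1.22% of the reads. Its shares were 0.104%, 0.190% and 0.120% in the inputs and 1.89%, 38.3% and 22.2% in the control eluates.

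The labelled cell type was checked on marker miRNAs. All 5 myoblast markers had reads, summing to 364513 to 794949 CPM in the inputs, nearly all miR-21a-5p, while miR-206-3p had 152 input reads. Of 5 markers made in differentiated muscle, miR-1a-3p, miR-499-5p and miR-208b-3p had no input read. The others, miR-133a-3p and miR-133b-3p, had 725 and 1194 input reads, and these markers summed to 353 to 3271 CPM in the inputs. Blood markers summed to at most 5.56 CPM in the inputs and 0 in the eluates, and epithelial markers to 23.2 to 85.3 CPM and 0 to 65.6 CPM. Neural markers summed to 950 to 1554 CPM in the inputs, with miR-124-3p at 0, and 21.3 to 59.4 CPM in the eluates. Endothelial and smooth muscle markers, nearly all miR-143-3p, summed to 27373 to 28120 CPM and 1519 to 2232 CPM. In bulk RNA, fewer cells of a type and less RNA per cell cannot be told apart. The part of other cells in the retained names was not tested.

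The authors' deposited table calls 202 of 2042 names between MS2 control and input, 26 higher and 176 lower. Of the 187 calls made here, the authors' deposited table shares 177 with the same sign, 19 of them higher, and none with the opposite sign. Another 25 calls of the authors' deposited table, 7 of them higher, concern names under the filter used here.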

How the data were processed

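Small RNA of C2C12 cells was measured in 18 libraries, of which the 3 MS2 control eluates and 3 inputs of undifferentiated cells were compared. The submitters' processing notes name the build GRCm38 (mm10) and the tools edgeR 3.18.1, featureCounts 1.4.6, Bowtie2 2.0.13 and cutadapt 1.4.2. Not given in the sources used here: their settings, the use of strand and the treatment of multiply matching reads. The signal deposited by the authors is a normalised CPM. Since each library's values step by what 1 read is worth, they were turned back into reads, of which 100% came out whole within 0.01. The step and the total gave each library's factor, 0.701 to 1.12 in these inputs and 1.48 to 2.12 in these eluates, equal to TMM factors over all 18 libraries. The log2 fold changes and p-values in the authors' deposited table were used only for counts of calls.

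limma 3.58.1 with a trend (R 4.3.3) was fitted to log2(CPM + 10), where 10 is the pseudocount, on the 6 libraries, after filterByExpr of edgeR 4.0.16 on recovered reads (a level of 48.5 CPM). p-values were adjusted by Benjamini-Hochberg over all tested names, with a threshold of 0.05. The difference between states used 12 libraries. Alternatives were other scalings, edgeR, DESeq2 1.42.0, voom, pseudocounts of 1 and 50, other filters, other sets of libraries in the fit and each library left out. Counting intervals are exact at 95%. The fits were tested on simulated data. The main fit recovered 19.2% of 2-fold, 68% of 4-fold and 100% of 8-fold changes and called 0% of unchanged names. The fit of the difference between states recovered 16.1%, 58.1% and 60% and called 1.63% of unchanged names. The simulation used a fixed spread and a common mean level of each name, unlike these data. Python 3.11.15 made the tables and figures.

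The members, lists and tests were chosen with earlier results of these data known. Named miRNAs are the 15 largest rises and falls with adjusted p under 0.05, at least 100 CPM and no overlap, the 10 most abundant of each group, list members over 1000 CPM with up to 3 further examples a list, arms called in opposite directions, and the 5 largest rises and falls of the difference between states. miR-3473b, miR-188-5p, miR-7667-3p, miR-99a-5p, the remaining arm pairs, the read ratios and the printed sequences were chosen after their values were seen. No table column was left without a group.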

Additional observations from a re-analysis of the deposited data

Results flagged for a closer look

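The contrast of MS2 control and input differed between undifferentiated and differentiated cells, by a limma test of that difference on 12 libraries, for 31 of 276 names (11.2%), and 19 of them are among the named miRNAs. Values are the undifferentiated minus the differentiated log2 fold change. Their median was -0.68 over all tested names with the deposited scaling, so differences below 0 there are partly shared by most names. With library totals, RLE factors, TMM factors of the 12 libraries, edgeR and DESeq2 the median was -0.13, 0.20, 0.17, -0.68 and 0.23. The largest differences below 0 were miR-27a-5p at -4.99, miR-3103-3p at -4.30, miR-129-5p at -4.16, miR-16-1-3p at -3.78, miR-125a-3p at -3.76 and miR-31-3p at -3.73. miR-690 was at -3.20, miR-199a-5p at -2.96, miR-484 at -2.90, miR-222-5p at -2.90, miR-148b-3p at -2.56, miR-222-3p at -2.48, miR-877-5p at -2.45, miR-10a-5p at -2.28, miR-101b-3p at -1.81 and miR-31-5p at -1.75. Those above 0 were miR-664-3p at 1.93, miR-7667-3p at 3.22 and miR-499-5p at 4.32.

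Few of these rest on ample reads, and 2 of the 31, miR-27a-5p and miR-199a-5p, passed under all 6 scalings and tests. Of the 31 names, 9 had at least 10 reads in each of the 4 groups and 15 had a group with none. miR-499-5p, miR-664-3p, miR-31-3p, miR-129-5p, miR-222-5p and miR-101b-3p had no eluate read in either state, so their differences follow the input level and the floor of the eluates. miR-690 had 35 and 71 eluate and input reads in undifferentiated cells and 227 and 86 in differentiated ones, and its difference passed under 5 of 6 scalings and tests. miR-199a-5p, at -2.07 in undifferentiated and 0.89 in differentiated cells with 24 and 81 eluate reads, was one of the 2. The other, miR-27a-5p, had 7 eluate reads in each state against 2596 and 129 input reads. miR-222-3p and miR-31-5p, with 334 and 431 undifferentiated eluate reads, passed under 2 and 1 of the 6. miR-148b-3p and miR-10a-5p passed under 2, and miR-877-5p and miR-101b-3p under 1.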

How the results depend on the processing

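Over the alternatives run for the 107 named contrasts, 1728 of 1927 values kept direction and side of the threshold, 98 fell short of it, 49 newly passed, 20 changed direction with a call on either side and 32, of 12 names, changed direction with no call on either side; for 8 differences between states, 124 of 156 kept both and 32 fell short. The count of higher names (20) was 36 with RLE factors, 50 with DESeq2, 10 among names with at least 10 reads in every input and 13 with at least 10 in every eluate; lower names (167) were 102, 66 and 29 with RLE, DESeq2 and the eluate filter. Leaving out a library gave 16 to 29 higher and 124 to 210 lower.

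The difference between states (3 higher, 28 lower) gave 5 and 10 with library totals, 8 and 10 with RLE, 7 and 11 with TMM of its own libraries, 1 and 13 with edgeR, 7 and 7 with DESeq2, 4 and 20 with a pseudocount of 1, 7 and 43 with 50, 2 and 15 with no filter, 2 and 29 with voom, and 1 to 9 higher and 7 to 40 lower with a library left out.

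Changes of direction with a call on either side came with DESeq2 and RLE. With DESeq2 these were miR-6241 1.49, miR-199a-3p 1.35, miR-199b-3p 1.24, miR-199a-5p 0.0035, let-7b-5p 1.38, let-7c-5p 0.16, let-7e-5p 0.18, miR-31-5p 1.15, miR-222-3p 1.18, miR-16-5p 2.46, miR-99b-5p 0.054, miR-125b-1-3p 1.33, miR-26a-5p 0.094, miR-181b-5p 0.084, miR-34c-5p 1.21 and miR-615-5p 0.16. With RLE they were let-7b-5p 1.16, miR-31-5p 0.81, miR-125b-1-3p 1.08 and miR-34c-5p 0.80. Those with no call numbered 9 with RLE, 8 with TMM, 6 with library totals, 5 with DESeq2 and, all for miR-16-5p, 1 each with edgeR (0.28), with voom (0.07), without MS2 control A (0.73) and without input C (0.04). The cause was not tested; both scalings raise the median, as the medians in the results show. Of the 15 named rises, 13 kept their call in every alternative that tested them, and miR-6898-3p and miR-690 lost it in 1 each. No paired analysis was possible because the table's columns carry no replicate numbers of the labels. Intervals and floors cover counting error only.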
